A study of Mus musculus with 8 samples.

Results

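The 9 genes described here act in the uptake and oxidation of fatty acids or in their control, and were chosen by symbol as targets of the peroxisome proliferator-activated receptors (PPARs) that respond to fasting, with a receptor gene among them. They are Ppara, Cd36, Fabp3, Cpt1b, Cpt2, Acadl, Acadm, Pdk4 and Angptl4. The rule reads the symbol and no measured value. All 9 symbols were among the 32849 rows of the count table, and all 9 passed the filter on low counts that left 14864 genes for testing. The libraries were made from frozen esophagus tissue, 4 from MGL KO and 4 from WT mice, all without treatment. MGL KO mice lack monoacylglycerol lipase, which is encoded by Mgll and splits monoglycerides such as 2-arachidonoylglycerol into glycerol and a fatty acid, and they were bred in-house with WT littermates. The study's methods state that mice of both sexes, 8 to 12 weeks old, were used. For healthy WT and MGL KO mice measured for esophagus thickness, the paper gives an older age range. For the 8 animals sequenced, the sex, exact age, feeding state and time of dissection are not given in the sources used here. The labels number the libraries of each group from 1 to 4 without naming the animals, so p-values measure the spread between these libraries.

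The tissue held RNA of striated muscle, squamous epithelium, vessels and fat. Skeletal muscle markers, 10 of 10 detected, summed to between 36359 and 92417 normalized CPM (counts per TMM-adjusted library size, as edgeR computes them) in MGL KO and between 47832 and 77099 in WT libraries. Squamous epithelium markers, 6 of 6 detected, summed to between 4561 and 16894 normalized CPM in MGL KO and between 5299 and 17186 in WT libraries. In bulk tissue, fewer cells of a type and less RNA per cell cannot be told apart. Library totals ranged from 13479069 to 17090152 counts. A count of 0 would allow up to 3 counts, or between 0.167 and 0.271 normalized CPM, counting error only. Mgll itself lay between 12.6 and 16.0 normalized CPM in MGL KO and between 66.6 and 88.3 in WT libraries (log2 fold change -2.57, standard error 0.13, adjusted p = 0.000133).

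Long-chain fatty acids enter muscle and other cells with the help of the membrane protein CD36 and are carried in the cytosol by binding proteins such as FABP3. Carnitine palmitoyltransferases (CPT1 outside, CPT2 inside) pass them into mitochondria, where acyl-CoA dehydrogenases carry out the first step of each round of beta-oxidation. Free fatty acids are also ligands of PPAR alpha, a nuclear receptor that raises transcription of these genes in fasting, along with Pdk4, whose product shuts glucose-derived carbon out of the citric acid cycle, and Angptl4, whose product inhibits lipoprotein lipase.

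In the comparison of MGL KO with WT esophagi, which asked for basal changes between the genotypes, 0 of the 9 genes had an adjusted p under 0.05 by edgeR's quasi-likelihood test, against 7 genes or 0.0471% of all tested (0.0202% with a higher and 0.0269% with a lower level in MGL KO). The count was also 0 of 9 by edgeR's exact test, DESeq2 and limma-voom, which called 0.437%, 0.907% and 0.168% of the genes to which they gave an adjusted p. Pdk4 was the 1 gene of the 9 with an unadjusted p under 0.05, a level that 8.65% of all tested genes reached (4.35% with a higher and 4.29% with a lower level in MGL KO). The fitted log2 fold change lay above 0 for 8 of the 9 genes and for 53% of all tested genes. Its median was 0.35 over the 9 genes and 0.02 over all tested genes. In 0 of the 9 genes did every MGL KO library lie on 1 side of every WT library, as happened in 6.02% of all tested genes.

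**Figure D1:**
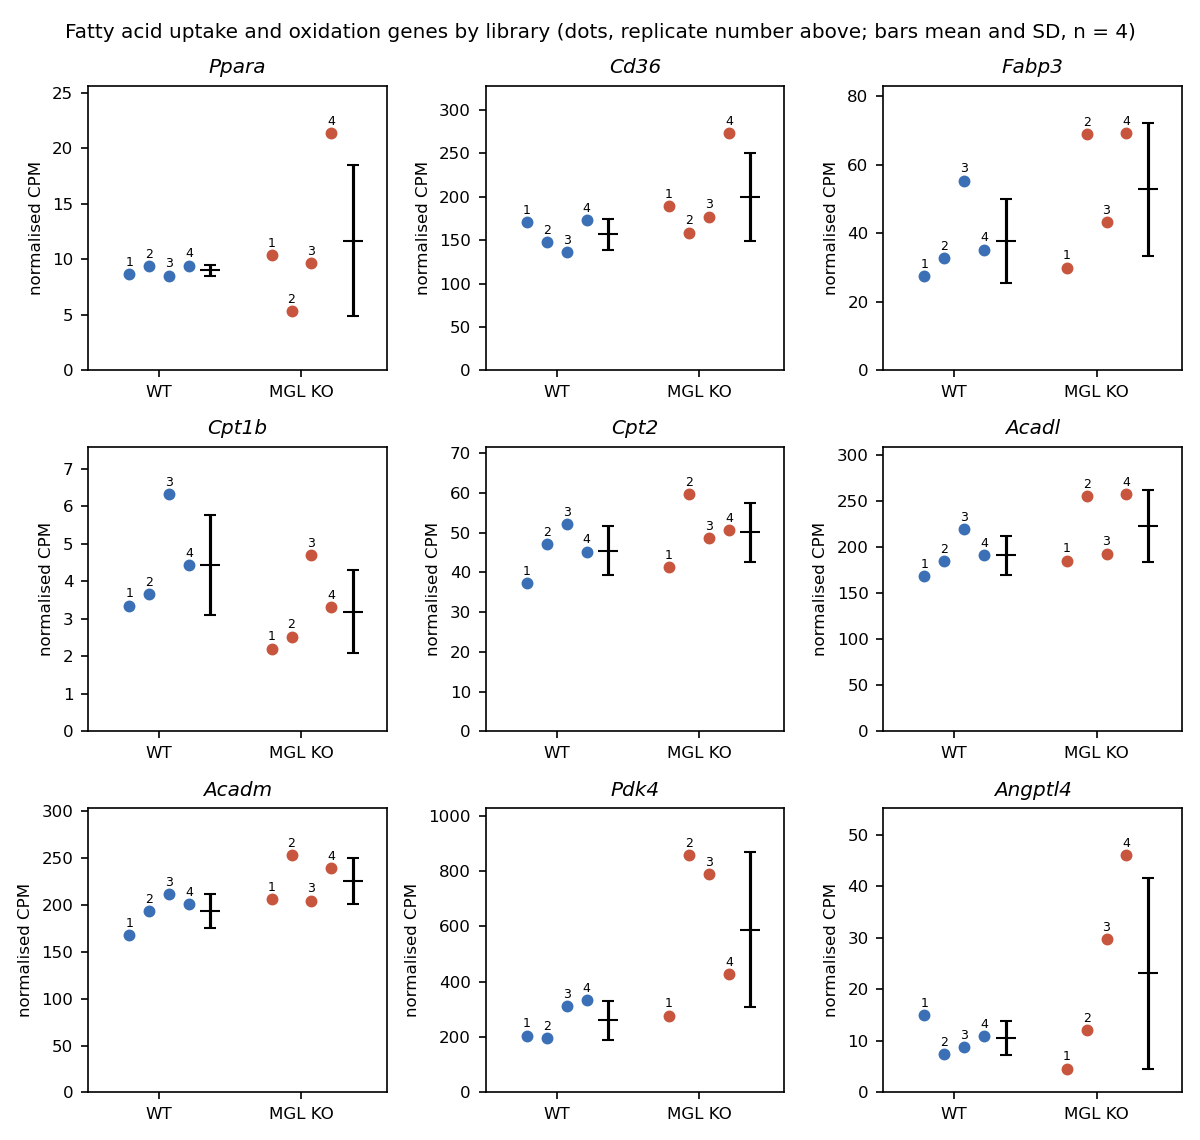
Normalized CPM of the 9 genes in each library (dots, with the replicate number above) for WT and MGL KO esophagi, with the mean and SD of each group (bars, n = 4) on linear axes that start at 0. The groups overlap in every panel. MGL KO replicate 4 is the highest library for 5 of the 9 genes and MGL KO replicate 2 for 3, and Cpt1b is highest in WT replicate 3.

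Ppara (ENSMUSG00000022383.15, GRCm39 chromosome 15, 85618656 to 85687067, forward strand) encodes the receptor of this group. Its level was 10.4, 5.32, 9.68 and 21.4 normalized CPM in MGL KO replicates 1 to 4, and 8.65, 9.42, 8.55 and 9.45 in WT replicates 1 to 4. WT libraries lay close together, whereas MGL KO libraries held both the lowest and the highest value of the series. The means were 11.7 ± 6.82 in MGL KO and 9.02 ± 0.486 in WT esophagi (normalized CPM, SD, n = 4 each). The difference on the log2 scale was 0.38 with a 95% interval from -0.43 to 1.19 (adjusted p = 0.767), and it was -0.083 without MGL KO replicate 4 and 0.067 with the skeletal muscle markers as a covariate (adjusted p from 0.546 to 0.944 over all alternatives). At the 3′ end of the gene, 50.8% of the bases of the canonical transcript are also exon bases of Cdpf1 on the opposite strand. The use of strand in counting is not given in the sources used here, and reads of the shared stretch then cannot be told apart.

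Cd36 (ENSMUSG00000002944.17, chromosome 5 from 17986432 to 18094067, reverse strand), the fatty acid translocase, was at 189, 158, 177 and 273 normalized CPM in MGL KO replicates 1 to 4. In WT replicates 1 to 4 it was at 171, 147, 136 and 173. MGL KO replicate 4 was again the highest, and the other MGL KO libraries reached into the WT range or just above it. Its log2 fold change was 0.35 (95% interval -0.06 to 0.75, adjusted p = 0.629). Without MGL KO replicate 4, it was 0.16 (adjusted p = 0.659, and from 0.277 to 0.923 over all alternatives).

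Fabp3 (ENSMUSG00000028773.10, chromosome 4 from 130202388 to 130209259, forward strand) encodes the binding protein of heart and skeletal muscle. It was at 30.0, 68.9, 43.2 and 69.2 normalized CPM in MGL KO and at 27.4, 32.7, 55.4 and 35.2 in WT replicates 1 to 4. The high libraries were MGL KO replicates 2 and 4 and WT replicate 3. Of these, MGL KO replicate 2 and WT replicate 3 also held the most skeletal muscle marker RNA (92417 and 77099 normalized CPM), while MGL KO replicate 4 held the least of all libraries (36359). For Fabp3 the log2 fold change was 0.49 (95% interval -0.20 to 1.17, adjusted p = 0.666) and 0.55 with the skeletal muscle markers as a covariate (adjusted p = 0.386). It was 0.74 without WT replicate 3, but 0.33 without MGL KO replicate 4 and 0.34 without MGL KO replicate 2 (adjusted p from 0.332 to 0.923 over all alternatives). Of the canonical Fabp3 transcript, 66.5% of the bases are shared with exons of Zcchc17 and Gm10570 on the opposite strand, and Zcchc17 had 487 to 657 counts per library.

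Cpt1b (ENSMUSG00000078937.10, chromosome 15 from 89300606 to 89310239, reverse strand), the muscle form of the enzyme at the gate of mitochondria, was the 1 gene of the 9 with a fold change below 0. It was at 2.20, 2.53, 4.69 and 3.32 normalized CPM in MGL KO and at 3.35, 3.65, 6.31 and 4.43 in WT replicates 1 to 4. These values rest on between 28 and 96 counts per library, and WT replicate 3 and MGL KO replicate 3 were the highest of their groups. A log2 fold change of -0.47 was fitted (95% interval -1.19 to 0.24, adjusted p = 0.686). Without WT replicate 3, the highest library, it was -0.25, and without MGL KO replicate 3 it was -0.72 (adjusted p from 0.516 to 0.923 over all alternatives).

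Most of the exon sequence of Cpt1b is annotated to another gene as well. The gene Gm44502 reads through from Chkb into Cpt1b on the same strand, and 4296 of its 4296 annotated exon bases are also exon bases of Chkb or Cpt1b. It covers 89.8% of the canonical Cpt1b transcript and leaves 310 bases to Cpt1b alone. The table lists Gm44502 with 0 counts in every library and Chkb, which encodes choline kinase beta, with 11 to 28 counts. Reads that fall on exons of both genes cannot be assigned by position alone. How they were counted is not given in the sources used here, and the part of this in the level of Cpt1b was not tested. The level of Cpt1b is therefore uncertain and is left out of the order of levels per length.

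**Figure D2:**
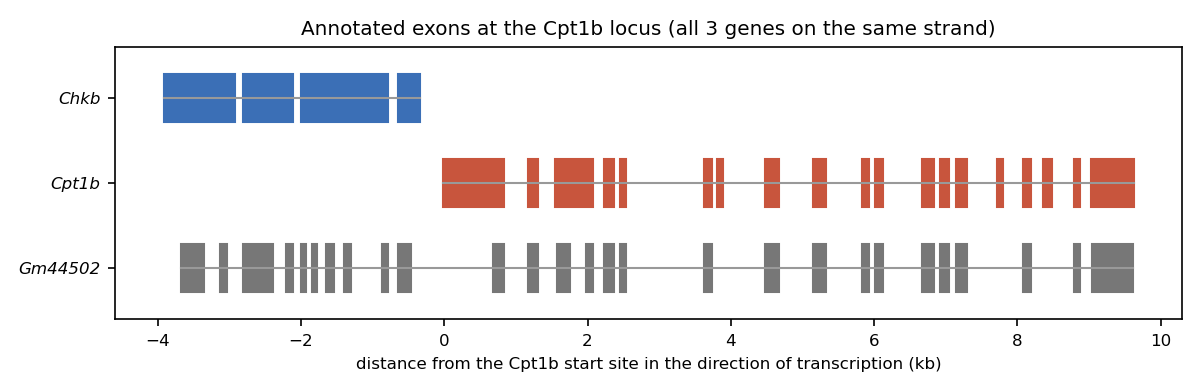
Annotated exons (boxes, all transcripts merged, GENCODE on GRCm39) of Chkb, Cpt1b and Gm44502, drawn to scale by distance in kb from the Cpt1b start site in the direction of transcription. Each box of Gm44502 lies under a box of Chkb or Cpt1b, which leaves it no exon base of its own.

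Cpt1a, the form of liver and most other tissues, shares 0.0% of its canonical transcript with another gene and was at 48.8 ± 14.1 normalized CPM in MGL KO and 56.6 ± 12.7 in WT esophagi (SD, n = 4). The log2 ratio of Cpt1b to Cpt1a counts within a library was -3.93 ± 0.41 in MGL KO and -3.67 ± 0.76 in WT esophagi (SD, n = 4). The difference of -0.26 was smaller than either SD (two-sided exact permutation test, p = 0.714, adjusted p = 0.714 over 2 ratios). This ratio carries the uncertain count of Cpt1b, and its sign turned without WT replicate 3, where the difference was 0.11.

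Cpt2 (ENSMUSG00000028607.18, chromosome 4 from 107751473 to 107780812, reverse strand), which releases the fatty acid from carnitine inside the mitochondrion, varied little. It was at 41.3, 59.6, 48.7 and 50.6 normalized CPM in MGL KO and at 37.3, 47.1, 52.2 and 45.2 in WT replicates 1 to 4. MGL KO replicate 2 was the highest library and WT replicate 1 the lowest, with the rest of the values interleaved (log2 fold change 0.14, 95% interval -0.18 to 0.46, adjusted p = 0.776).

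Acadl (ENSMUSG00000026003.7, chromosome 1 from 66868267 to 66902633, reverse strand), the long-chain acyl-CoA dehydrogenase, was at 185, 255, 193 and 257 normalized CPM in MGL KO and at 168, 185, 219 and 191 in WT replicates 1 to 4. Acadm (ENSMUSG00000062908.14, chromosome 3 from 153627989 to 153650317, reverse strand), the medium-chain dehydrogenase, was at 206, 253, 205 and 239.7 normalized CPM in MGL KO and at 168, 193, 211 and 201 in WT replicates 1 to 4. Both genes were highest in MGL KO replicates 2 and 4 and lowest in WT replicate 1. A log2 fold change of 0.22 was fitted for Acadl (95% interval -0.11 to 0.56, adjusted p = 0.686) and 0.22 for Acadm (95% interval -0.05 to 0.49, adjusted p = 0.638). As ratios of MGL KO to WT, these intervals run from 0.923 to 1.47 for Acadl and from 0.967 to 1.41 for Acadm.

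Pdk4 (ENSMUSG00000019577.8, chromosome 6 from 5483097 to 5496339, reverse strand) encodes the pyruvate dehydrogenase kinase that fasting induces in muscle. Its level was 278, 857, 789 and 428 normalized CPM in MGL KO replicates 1 to 4 and 205, 197, 311 and 332 in WT replicates 1 to 4. MGL KO replicates 2, 3 and 4 lay above every WT library, and MGL KO replicate 1 lay inside the WT range. The means were 588 ± 279.7 in MGL KO and 261 ± 70.5 in WT esophagi (normalized CPM, SD, n = 4 each). On the log2 scale the difference was 1.17 (standard error 0.36), or 2.25-fold with a 95% interval from 1.28 to 3.96. With an unadjusted p of 0.0101, Pdk4 ranked 311 among the 14864 genes tested, and its adjusted p of 0.485 did not pass 0.05. Leaving out each library in turn gave log2 fold changes between 0.94 (without MGL KO replicate 2) and 1.41 (without MGL KO replicate 1), and the adjusted p lay between 0.076 (DESeq2) and 0.923 (the replicate number as a block) over all alternatives. With the skeletal muscle markers as a covariate, the log2 fold change of Pdk4 was 1.24 (adjusted p = 0.122 by edgeR's quasi-likelihood test).

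Of the other kinases that act on the same enzyme, Pdk2 gave a log2 fold change of -0.01, Pdk1 of 0.11 and Pdk3 of 0.17. The log2 ratio of Pdk4 to Pdk2 counts, which does not depend on the scaling of libraries, was 0.18, 1.11, 1.57 and 0.99 in MGL KO replicates 1 to 4. In WT replicates 1 to 4 it was -0.14, -0.50, -0.17 and 0.27. MGL KO replicate 1 lay below WT replicate 4, and the difference of the means was 1.10 (two-sided exact permutation test, p = 0.0571, adjusted p = 0.114 over 2 ratios). The smallest p that 4 libraries against 4 allow is 0.0286. Per kb of canonical transcript, Pdk2 was the more abundant of the pair in WT esophagi (122 ± 21.9 against 69.5 ± 18.7 normalized CPM per kb, SD, n = 4), whereas Pdk4 averaged 156 ± 74.4 and Pdk2 122 ± 34.8 in MGL KO esophagi.

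Angptl4 (ENSMUSG00000002289.18, chromosome 17 from 33992724 to 34000804, reverse strand), the secreted inhibitor of lipoprotein lipase, was the most variable of the 9 genes. It was at 4.59, 12.1, 29.8 and 46.0 normalized CPM in MGL KO replicates 1 to 4, a 10.02-fold range within the group, and at 15.01, 7.42, 8.74 and 10.9 in WT replicates 1 to 4. MGL KO replicate 1 had the lowest value of the series and MGL KO replicates 3 and 4 had the highest. Its log2 fold change of 1.14 had a 95% interval from -0.21 to 2.49 (adjusted p = 0.631). It was 0.56 without MGL KO replicate 4 and 1.48 without MGL KO replicate 1 (adjusted p from 0.414 to 0.923 over all alternatives). Adipocyte markers, 6 of 6 detected, summed to 112, 22.02, 391 and 377 normalized CPM in MGL KO and to 454, 110.3, 11.5 and 186 in WT replicates 1 to 4. MGL KO replicates 3 and 4, highest in Angptl4, held the most adipocyte marker RNA of their group, and WT replicate 1 was highest in both measures in its group. The order of libraries differed elsewhere, since MGL KO replicate 1 had more adipocyte marker RNA than MGL KO replicate 2 but less Angptl4, and WT replicate 1, with the most adipocyte marker RNA of all, had less Angptl4 than MGL KO replicates 3 and 4. The part of adipocyte RNA in the level of Angptl4 was not tested. With the adipocyte markers as a covariate, an alternative chosen after seeing the data, the log2 fold change was 0.83 (adjusted p = 0.462).

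The coefficient of variation was smaller in WT than in MGL KO esophagi for 9 of the 9 genes and for 70.1% of all tested genes. It was 5.39% in WT and 58.4% in MGL KO esophagi for Ppara and 31.6% and 80.3% for Angptl4, but 9.51% and 10.7% for Acadm. The biological coefficient of variation that edgeR fitted over both groups was 0.572 for Angptl4, higher than in 94.4% of tested genes, and 0.154 for Acadm, higher than in 18.1%. Its median over all tested genes was 0.229. The difference in spread between the groups was not tested.

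MGL KO replicate 4 was the highest library for 5 of the 9 genes, namely Ppara, Cd36, Fabp3, Acadl and Angptl4, and MGL KO replicate 2 for 3 of them, namely Cpt2, Acadm and Pdk4. In MGL KO replicate 4, Ucp1, the uncoupling protein that defines brown fat, was at 43.6 normalized CPM, and no other library exceeded 2.45, and Cidea was at 66.0 against at most 4.73. The third marker, Ppargc1a, was at its lowest there (23.7). The 3 brown adipocyte markers summed to 133 normalized CPM there and to 30.9 to 47.2 elsewhere. Airway ciliated and secretory markers, 6 of 6 detected in that library, summed to 5165 normalized CPM there and to at most 44.9 elsewhere. The part of these tissues in the levels of the 9 genes was not tested. Without MGL KO replicate 4, the median log2 fold change over the 9 genes was 0.16 instead of 0.35, that of all tested genes was -0.01, and 7 of the 9 were above 0. Pdk4 gave a log2 fold change of 1.30 without this library (adjusted p = 0.479).

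**Figure D3:**
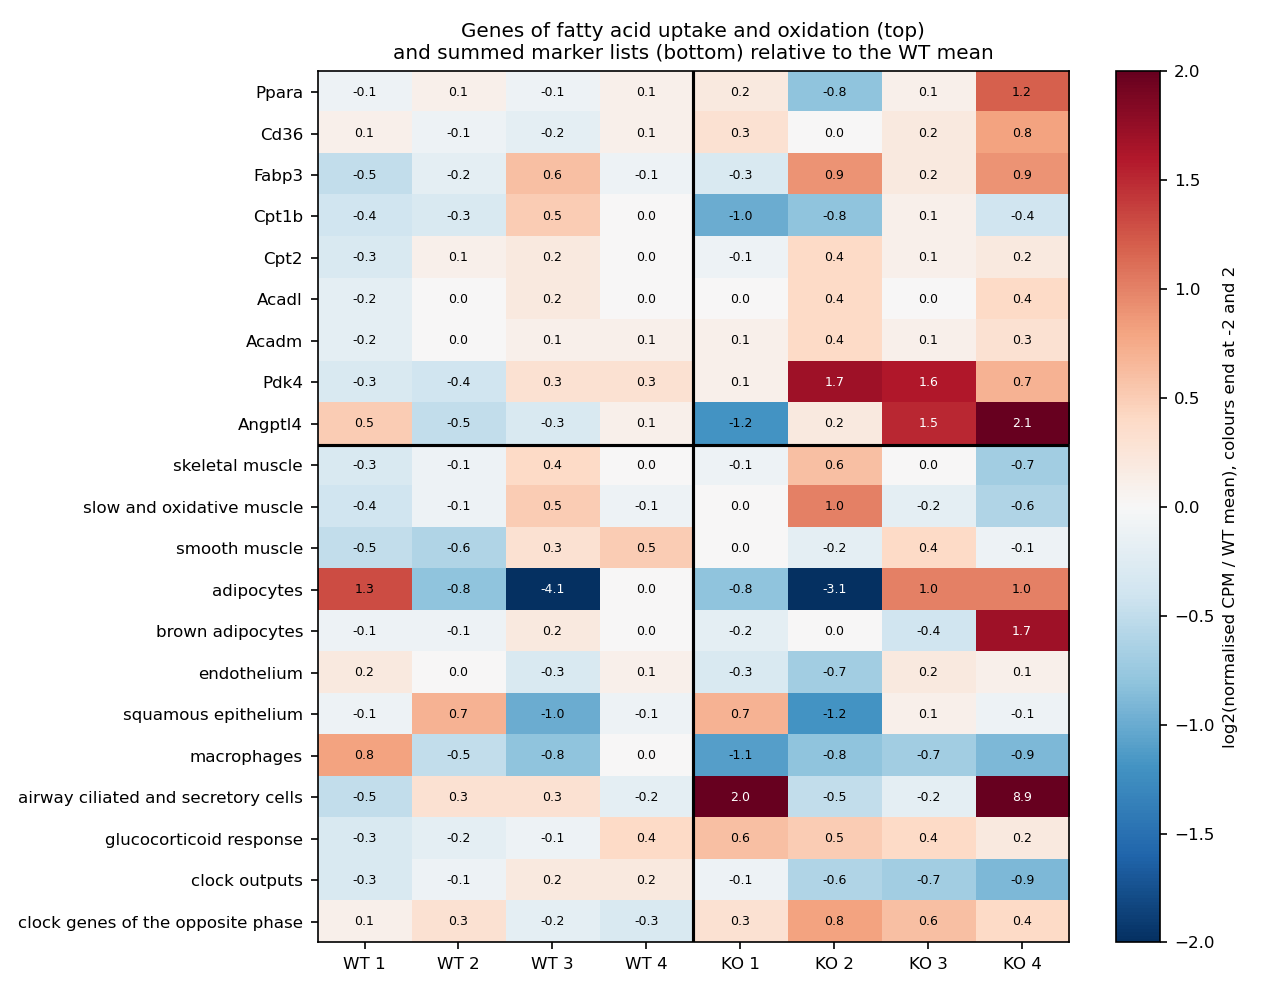
Log2 of normalized CPM over the WT mean for the 9 genes (rows above the line) and for 12 summed marker lists (rows below it) in each library (columns), with red for higher, blue for lower and the value printed in each cell. MGL KO replicate 4 combines the highest brown adipocyte and airway sums with the highest Ppara and Angptl4. MGL KO replicate 2 has the most skeletal muscle and the highest Pdk4. WT replicate 3, with the most skeletal muscle of its group, is below WT replicate 4 in Pdk4. MGL KO replicate 4, with the least skeletal muscle, is above every WT library in Pdk4.

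The other marker lists covered muscle types, vessels, macrophages, glucocorticoids and the clock. Slow and oxidative muscle markers summed to between 1583 and 4809 normalized CPM in MGL KO and between 1827 and 3487 in WT libraries, smooth muscle markers to between 1271 and 1833 and between 954 and 1991, and endothelial markers, which include cells that carry CD36, to between 134 and 251 and between 172 and 245. Macrophage markers summed to between 104 and 131 normalized CPM in MGL KO and between 123 and 370.4 in WT libraries. Genes of the glucocorticoid response, a pathway that also induces Pdk4 and Angptl4, summed to between 701 and 955 normalized CPM in MGL KO and between 497 and 830.5 in WT libraries. Clock output genes summed to between 445 and 759 and between 655 and 953. Clock genes of the opposite phase, namely Arntl, Npas2 and Clock, summed to between 133 and 183 normalized CPM in MGL KO libraries. In WT libraries they summed to between 89.2 and 130.1. This was the 1 list of 12 whose groups did not overlap, as happened in 6.02% of single tested genes. Across these lists, 0 of the tested genes had an adjusted p under 0.05 by edgeR's quasi-likelihood test, against 0.0471% of all tested genes. The part of these lists in the level of Pdk4 was not tested.

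Per kb of canonical transcript in WT esophagi, Acadm was the most abundant of the genes (94.0 ± 8.94 normalized CPM per kb, SD, n = 4), followed by Acadl (76.4 ± 8.56), Pdk4 (69.5 ± 18.7), Fabp3 (45.8 ± 14.9), Cd36 (44.8 ± 5.13) and Cpt2 (19.1 ± 2.61). Acadl and Pdk4, and likewise Fabp3 and Cd36, lay within the SD of each other. Angptl4 (3.18 ± 1.00) and Ppara (2.54 ± 0.137) were far lower, and their means differed by less than the SD of Angptl4 but by more than that of Ppara. In MGL KO esophagi, Pdk4 had the highest mean (156 ± 74.4), and its SD spanned the levels of Acadm (109.7 ± 11.8) and Acadl (89.1 ± 15.6). Reads from other transcripts of a gene enter these values, and Cpt1b was left out of this order. The places of Fabp3 and Ppara are uncertain too, since 66.5% and 50.8% of their canonical transcripts are shared with genes on the opposite strand.

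PPAR alpha binds as a partner of the retinoid X receptor to a direct repeat named DR1, in which the letters AGGTCA occur 2 times with 1 base of any kind between. This motif was searched on both strands in the 1000 bases before the canonical start site of each gene in GRCm39. With at most 2 of its 12 fixed letters changed, it was found for 3 of the 9 genes (33.3%), for 12 of 59 other pathway genes (20.3%) and for 12.4% of 14571 tested genes. The closest match of these 3 genes, and of Pdk4 and Angptl4, is shown on the strand of the gene with 10 bases on each side. The 13 bases of the match are in capitals, and a match that reads on the opposite strand appears as the reverse complement of the motif.
Fabp3, 1 letter changed, chr4:130201663-130201695, forward strand: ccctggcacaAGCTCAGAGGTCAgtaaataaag
Cpt1b, 2 letters changed, motif on the opposite strand, chr15:89310290-89310322, reverse strand: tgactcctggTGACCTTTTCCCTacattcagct
Acadm, 2 letters changed, chr3:153650596-153650628, reverse strand: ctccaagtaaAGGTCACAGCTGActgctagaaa
Pdk4, 3 letters changed, chr6:5496775-5496807, reverse strand: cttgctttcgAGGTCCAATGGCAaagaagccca
Angptl4, 3 letters changed, motif on the opposite strand, chr17:34000977-34001009, reverse strand: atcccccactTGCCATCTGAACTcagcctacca
The match of Cpt1b ends 75 bases before its start site and those of Acadm and Fabp3 end 331 and 703 bases before theirs. Matches with at most 3 letters changed occur before 61.3% of tested genes, so the sequences of Pdk4 and Angptl4, the genes with the largest fold changes of the 9, are of a kind that most genes have. For Ppara, Cd36, Cpt2 and Acadl the closest match had 4 letters changed. Sites within introns or farther away were not searched.

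Of the 61 other genes of the pathway, listed by role, 59 were tested. By edgeR's quasi-likelihood test, 0 of them had an adjusted p under 0.05, against 0.0471% of all tested genes, and 0 did by the exact test or limma-voom. In 2 genes with a higher and 4 with a lower level in MGL KO esophagi the unadjusted p was under 0.05, together 10.2% of the list against 8.65% of all tested genes. The median log2 fold change of the list was 0.08. Groups did not overlap in 5 of the 59 genes, namely 3 with every MGL KO library above every WT library, as in 2.72% of all tested genes, and 2 with every one below, as in 3.3%.

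**Figure D4:**
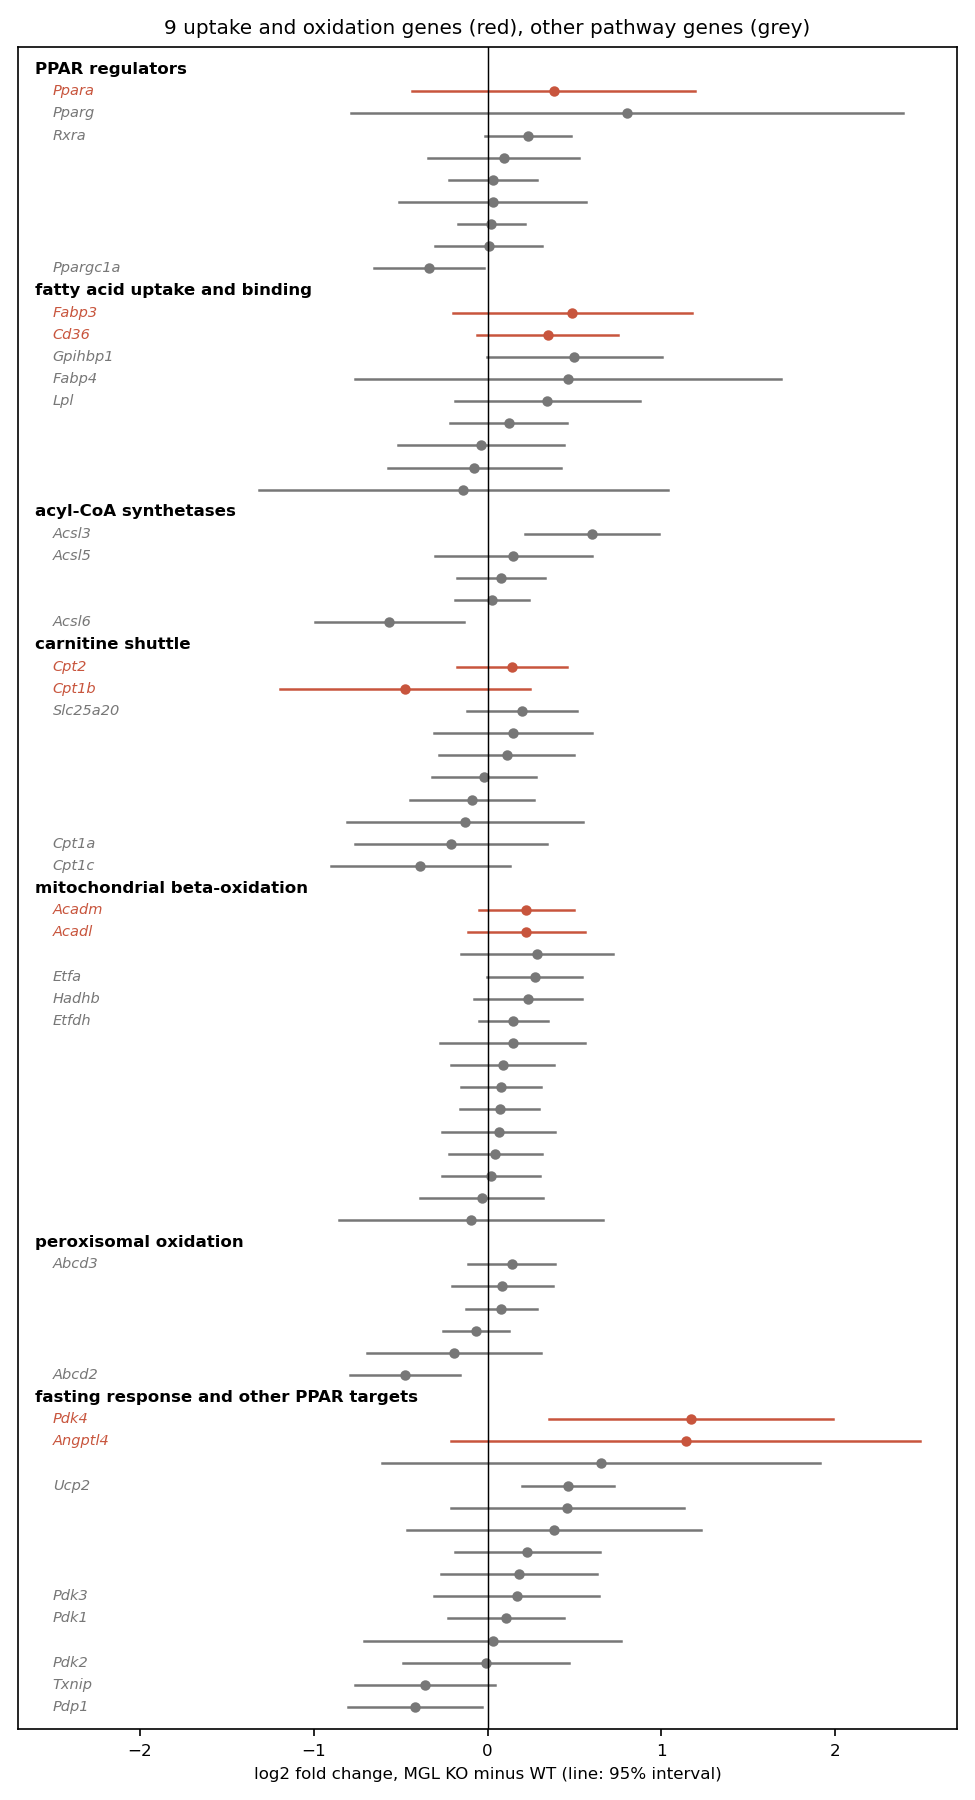
Log2 fold change of MGL KO minus WT with its 95% interval for the 9 genes (red) and 59 other pathway genes (grey), ordered by role and then by size, with names beside the genes described in the text. Of the 9 genes, Pdk4 alone has an interval that leaves out 0, and no gene shown had an adjusted p under 0.05 by edgeR's quasi-likelihood test.

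Among the PPAR regulators, Rxra, the partner of the PPARs, was at 214 ± 7.84 normalized CPM in MGL KO and 182 ± 20.04 in WT esophagi (SD, n = 4), with no overlap between the groups (log2 fold change 0.23, adjusted p = 0.602). The coactivator gene Ppargc1a gave -0.34 on the log2 scale (standard error 0.14, adjusted p = 0.559), with its lowest value, 23.7 normalized CPM, in MGL KO replicate 4. Pparg, the receptor of adipocytes, reached 18.7 normalized CPM in MGL KO replicate 4, where Ppara and the brown adipocyte markers were also highest, and 2.17 to 6.30 elsewhere (log2 fold change 0.80, adjusted p = 0.752).

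For uptake, Lpl, which frees fatty acids from circulating triglycerides, was at 772 ± 276 normalized CPM in MGL KO and 608 ± 93.0 in WT esophagi (SD, n = 4). Its highest value, 1186, was in MGL KO replicate 2, the library with the most muscle. Gpihbp1, the endothelial anchor of lipoprotein lipase, gave a log2 fold change of 0.50 (adjusted p = 0.580), and the adipocyte binding protein gene Fabp4 gave 0.46 (adjusted p = 0.805).

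The acyl-CoA synthetases, which activate fatty acids, held values on both sides. Acsl3 was at 54.3 ± 11.5 normalized CPM in MGL KO and 35.9 ± 4.64 in WT esophagi (SD, n = 4), a log2 fold change of 0.60 (adjusted p = 0.478). Acsl6 was at 11.1 ± 2.16 and 16.5 ± 2.78 normalized CPM, with every MGL KO library below every WT library (log2 fold change -0.57, adjusted p = 0.503). Acsl5 gave a log2 fold change of 0.15 (standard error 0.20).

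In the carnitine shuttle, the carrier gene Slc25a20 gave a log2 fold change of 0.20, Cpt1a one of -0.21 and the brain form Cpt1c one of -0.39, with adjusted p-values of 0.696, 0.802 and 0.659. The mitochondrial beta-oxidation genes outside the 9 lay close together, with 13 log2 fold changes between -0.09 and 0.28. The lowest of these is Etfb, of which 69.1% of the canonical transcript is shared with another gene on the same strand, and its 12 to 27 counts per library carry the same doubt as those of Cpt1b. The next lowest, Acads, gave -0.034. Etfa, a subunit of the flavoprotein that takes electrons from the dehydrogenases, was at 221 ± 29.0 normalized CPM in MGL KO and 183 ± 11.1 in WT esophagi without overlap (log2 fold change 0.27, adjusted p = 0.578). Hadhb, of the trifunctional protein, gave 0.23 and Etfdh, which passes the electrons on, gave 0.15.

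Of the peroxisomal genes, Abcd2, a transporter of very long-chain acyl-CoA, was at 39.6 ± 7.40 normalized CPM in MGL KO and 55.0 ± 3.24 in WT esophagi (SD, n = 4). Every MGL KO library lay below every WT library (log2 fold change -0.48, standard error 0.14, adjusted p = 0.478). Abcd3, a related transporter, gave 0.14 on the log2 scale (adjusted p = 0.729).

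Among the remaining fasting and PPAR targets, Ucp2, an inner-membrane carrier of mitochondria, was at 516, 544, 491 and 447 normalized CPM in MGL KO and at 332, 382, 394 and 340.0 in WT replicates 1 to 4. The groups did not overlap (log2 fold change 0.46, standard error 0.12, adjusted p = 0.433 by edgeR's quasi-likelihood test). Ucp2 was the 1 gene of the pathway with an adjusted p under 0.05 in DESeq2, which called 0.907% of all genes with an adjusted p. Pdp1, the phosphatase that opposes the Pdk kinases, gave -0.42 on the log2 scale (standard error 0.17, adjusted p = 0.559), and Txnip, an inhibitor of glucose uptake, -0.36 (adjusted p = 0.620). Fgf21 and Creb3l3, fasting genes of the liver, did not pass the filter on low counts.

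The genes whose libraries varied most like Pdk4, the member with the smallest p, were Vps18, Vac14 and Mocs3. The Pearson correlation of their log2 CPM with that of Pdk4, each centred within its group, was 0.986, 0.979 and 0.977 over 8 libraries. These are the highest values among 14864 tested genes over few libraries, which share depth and tissue content. The genes themselves gave log2 fold changes of 0.08, -0.01 and 0.12.

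The fitted values of the smaller differences also moved with the choice of test. With limma-voom and quality weights, which give a library that stands apart less weight, the log2 fold change was 0.24 for Fabp3, 0.033 for Cpt2, 0.096 for Acadl, 0.13 for Acadm and 0.52 for Angptl4, and 0.95 for Pdk4. With 1 library left out, Cpt2 lay between 0.049 (without MGL KO replicate 2) and 0.23 (without MGL KO replicate 1). Acadl lay between 0.15 (without MGL KO replicate 4) and 0.31 (without MGL KO replicate 1), and Acadm between 0.16 and 0.28. The lowest value of Pdk4 in the alternatives run was 0.94, whereas Angptl4, with a similar value in the full set of libraries, went down to 0.52.

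**Figure D5:**
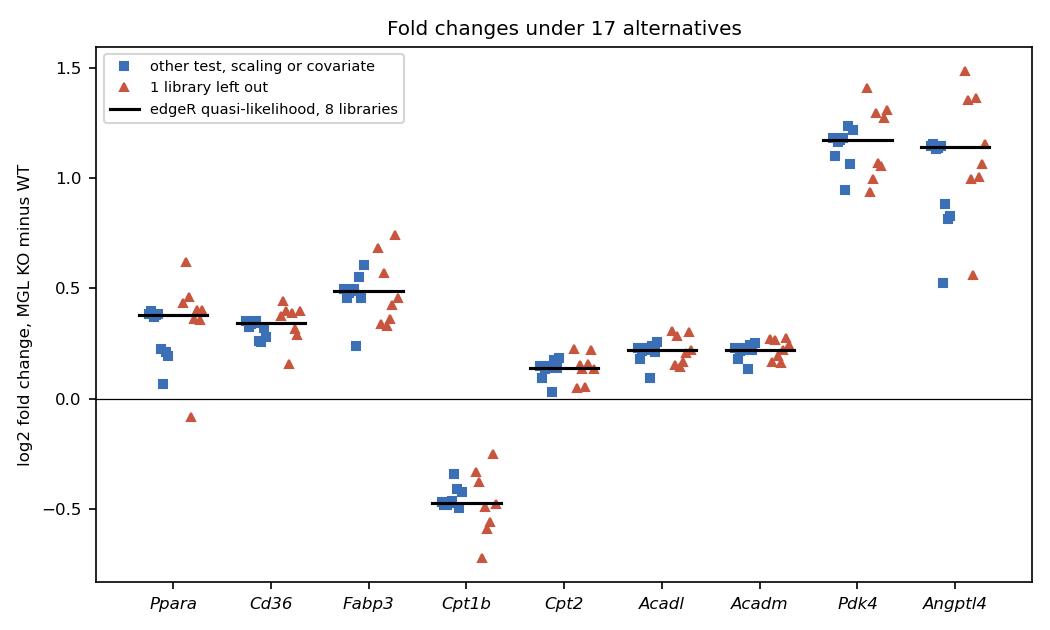
Log2 fold change of MGL KO minus WT of each of the 9 genes from edgeR's quasi-likelihood test on 8 libraries (black line), under other tests, scalings and covariates (blue squares) and with 1 library left out (red triangles). Ppara falls below 0 in the fit without MGL KO replicate 4, and each of the other genes keeps its sign in all 17 alternatives.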

How the data were processed

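Poly(A)-selected RNA of 4 MGL KO and 4 WT esophagi was sequenced. Per the labels and the study's methods, the authors checked reads with FastQC 0.11.9, trimmed adapters with Cutadapt and aligned reads to GRCm39 with STAR 2.7.10b. The deposited values are raw counts per gene symbol and library, which the authors did not normalize. The annotation, counting tool and use of strand are not given in the sources used here.

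Genes were kept by filterByExpr (edgeR 4.0.16, R 4.3.3) at a minimum count of 10. Groups were compared on TMM-scaled counts with edgeR's quasi-likelihood test and Benjamini-Hochberg adjustment over all 14864 kept genes, at a threshold of 0.05. The exact test of edgeR, which the study used, served as an alternative. Standard errors were derived from the F statistic. Ratios of counts used a pseudocount of 0.5 and a two-sided exact permutation test. Positions and exons are from GENCODE M39 on GRCm39. Libraries of a group differed beyond sampling noise (chi-square per degree of freedom at least 13.6).

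The 9 genes, 61 other pathway genes and 12 marker lists were chosen with earlier results of these data known. Of the other pathway genes, up to 3 per role with the smallest p were named (1 is not reported here), with Pdk1, Pdk2, Pdk3, Fgf21 and Creb3l3 added after their values were seen. Alternatives were RLE factors, library size alone, no filter, the exact test, DESeq2 1.42.0, limma-voom 3.58.1 with quality weights, skeletal muscle or adipocyte markers as a covariate, a replicate block and leaving out each library.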

Additional observations from a re-analysis of the deposited data

Results flagged for a closer look

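Dixon's test of the farthest library was applied to 46 sets of 4 libraries and was met by 2. About 2.3 would be expected if no library stood apart in any set, a number that does not tell whether a given set was met by chance. The brown adipocyte marker sum was 133 normalized CPM for MGL KO replicate 4, while the next library of its group had 40.3. The airway ciliated and secretory marker sum was 5165 normalized CPM for that library, while the next of its group had 44.9. In neither group did any of the 9 genes meet this limit.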

How the results depend on the processing

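The count of 0 called genes among the 9 was 0 under all 17 alternatives, of which the adipocyte covariate was chosen after seeing the data. Among the other pathway genes the count was 1 with DESeq2 (Ucp2) and 0 under the other 16, and the cause was not tested. With the replicate block, 0 of the 9 and 0 of the other genes were called, and the paired exact test gave p = 0.625 for the Cpt1b to Cpt1a ratio and p = 0.125, the smallest it allows, for the Pdk4 to Pdk2 ratio. Deviations of same-numbered libraries correlated at -0.145, -0.284, -0.154 and 0.073, which gives no sign of pairing beyond the number. The block called 2 of all tested genes instead of 7. That total was 2 without a filter, 6 with library size alone, 17 with the adipocyte covariate, 25 with limma-voom, 28 with the muscle covariate, 65 in the exact test and 133 with DESeq2. Leaving out 1 library gave 2 to 5.

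The log2 fold change of Ppara lay between -0.083 and 0.62 with 1 library left out, turning to -0.083 without MGL KO replicate 4, and was 0.067 with the muscle covariate. The difference in the Cpt1b to Cpt1a ratio lay between -0.44 and 0.11 with 1 library left out, turning to 0.11 without WT replicate 3. The cause was not tested. Precision is limited by 4 libraries per group and, for Cpt1b, by 28 to 96 counts per library.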
